A study of Homo sapiens with 8 samples.

Results

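Isolated open regions are accessible sites that stood alone in stretches with few or no other peaks. Overlapping peaks (1 bp or more in common) of 8 ATAC-seq lists were joined into regions on chromosomes 1 to 22 and X. A region was kept when no other merged region lay within 200000 bp on either side. This left 663 of 36638 merged regions (1.81%, 95% exact binomial interval 1.68 to 1.95, counting error only), and the remaining 35975 are called other regions here. The regions were chosen by the measured peak positions of all 8 lists, so their spacing is a description and not a finding, and no comparison of isolated with other regions below carries a test.

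All libraries came from 293T, a cell line derived from human embryonic kidney with the large T antigen of SV40, and the labels name no drug or knockdown. Cells were crosslinked, permeabilised and tagmented, and the mixture was bound to Q Sepharose, an anion exchanger that releases its load as salt rises. The unbound flow-through (FT) and successive washes with 20, 100, 200, 300, 500, 700 and 1000 mM NaCl (G20 to G1000) gave 1 library and 1 peak list each, with no replicates. Inside the files the peaks of G200 are named G50_200 and those of FT are named GL, and what these names mean, and so the place of G200 in the salt order, was not settled.

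Open chromatin is usually dense around the promoters and enhancers of active genes, where the transposase of ATAC-seq can insert its adapters. Gene deserts and lamina-bound or otherwise compact domains hold few such sites. A lone peak in such a stretch can be a promoter of a gene with no close neighbours, an enhancer far from its gene or an insulator site. Which of these applied to a given region was not tested.

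The depth behind the 8 lists differed. The longest list was FT with 22807 peaks and the shortest G700 with 8102. The genome background recovered from the peak statistics, in reads, ran from 0.239 in G200 to 0.662 in FT. Read numbers here were solved from the authors' fold and −log10 p and may count fragments. A longer list gives more regions of its own and more neighbours for those of other lists. Values with all lists at the length of the shortest are given beside the counts by number of lists, the width and the shares by fraction, and the part of list length in the other values was not tested.

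At the deposited list lengths most isolated regions were called in a single list. Of the 663, 383 (57.8%) were called in a single list, against 14569 of the other regions (40.5%). Another 97 were called in 2 lists, 47 in 3, 23 in 4, 32 in 5, 21 in 6, 31 in 7 and 29 in all 8. Regions of all 8 lists made up 4.37% of isolated regions and 11.6% of other regions. With all lists at the length of the shortest, 8102 peaks, 38.9% of the regions then isolated were of a single list. There 12% were of all 8, and the single-list majority was not kept. The shares of other regions at that length were not computed, so whether the contrast with them held there was not tested. At the deposited lengths, turned the other way, 2.56% of the regions of a single list were isolated (95% exact binomial interval 2.31 to 2.83), and 0.692% of those of all 8 lists (0.464 to 0.992). Between these ends the share did not fall evenly. It was 1.91% with 2 lists, 1.47% with 3, 0.903% with 4, 1.42% with 5, 0.993% with 6 and 1.34% with 7, and the intervals from 3 to 7 lists overlapped.

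**Figure D1:**
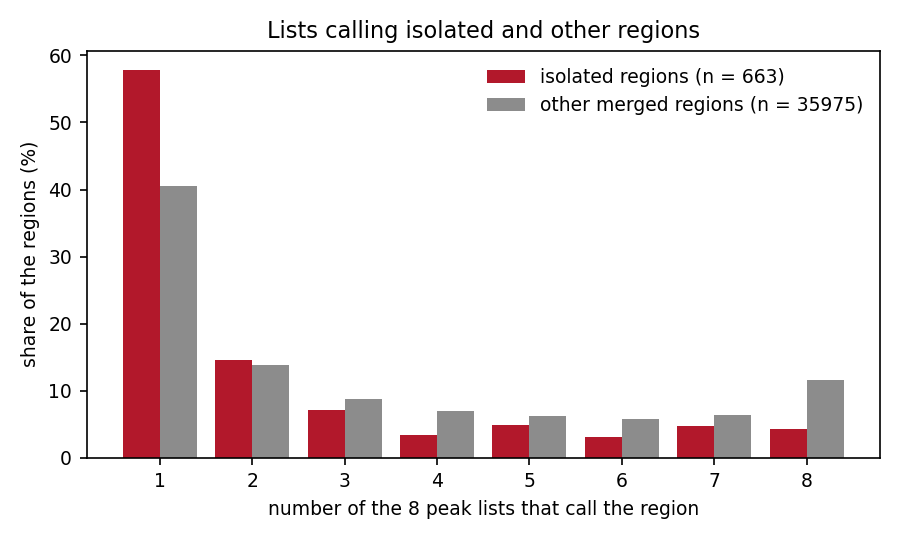
Share of isolated regions (red, n = 663) and of other merged regions (grey, n = 35975), in percent, by the number of the 8 peak lists that call the region. A single list called 57.8% of isolated and 40.5% of other regions, and all 8 lists called 4.37% and 11.6%.

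Isolated regions were narrower than other regions when all were pooled, but not in one direction at a matched number of lists. Their median width was 423 bp, with an interquartile range of 337 to 610 bp, against 532 bp (366 to 777 bp) in other regions. At equal list length the median width of the regions then isolated was 576 bp, and that of other regions was not computed. At the deposited lengths at least 1000 bp was reached by 38 isolated regions (5.73%) and by 9.98% of other regions. A merged region can widen when a further list adds a peak to it. Among regions of a single list the median width was 348 bp in isolated and 350 bp in other regions. With 6 lists it was 736 bp in isolated and 806 bp in other regions. Among regions of all 8 lists the order turned, with 1050 bp in isolated and 938 bp in other regions. Within single lists the median width of a peak in an isolated region was between 374 bp (G700) and 473 bp (FT), and in other regions between 419 bp (G700) and 530 bp (FT).

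Peaks in isolated regions had lower −log10 q by the authors' values, and at most matched numbers of lists too. In FT the median −log10 q was 4.74 in isolated and 5.92 in other regions. It was 4.47 and 6.08 in G20, 3.99 and 5.38 in G100, 3.70 and 5.50 in G200, and 4.27 and 5.84 in G300. In the high-salt lists it was 4.72 and 5.12 in G500, 3.68 and 5.10 in G700, and 4.62 and 5.26 in G1000, isolated before other regions in each pair. The isolated value was lower in every one of the 8 lists. Among regions of a single list the best −log10 q had a median of 2.65 in isolated and 2.98 in other regions, and among regions of all 8 lists it was 16.9 and 19.8. With 5 lists the order turned, at 8.51 in isolated and 8.25 in other regions. Isolated regions of a single list with a −log10 q of at least 5 numbered 32 (8.36%), against 11.6% of other such regions.

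The local background, the expected read number that the peak caller set against each summit, was lower at isolated regions. In FT its median was 0.940 reads at isolated and 1.70 reads at other regions. In G300 it was 0.689 and 1.32 reads, and in G1000 0.654 and 0.956 reads, with isolated regions given first. The background stood at the genome-wide floor of the list, within 0.002 reads, for 18.4% of isolated and 3.29% of other regions in FT. In G300 these shares were 29.9% and 5.59%, in G200 24.1% and 4.37%, and in G20 17.7% and 3.42%. The remaining lists had far fewer isolated regions at the floor. Their shares were 4.55% and 1.22% in G100, 5.74% and 0.477% in G500, 1.02% and 0.648% in G700, and 7.84% and 0.693% in G1000. The values at a matched number of lists lay closer together. Among regions called in FT alone the median was 0.715 reads at isolated and 1.07 reads at other regions, and among regions called in G300 alone 0.497 and 0.718 reads. Among regions of all 8 lists the FT medians were 2.53 and 2.79 reads. With G500 the order turned for regions of all 8 lists, at 1.29 reads in isolated and 1.25 reads in other regions.

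Each fraction called between 100 and 308 isolated regions. G300 called the most, 308 of its 19501 regions (1.58%, 95% exact binomial interval 1.41 to 1.76). FT called 293 (1.30%, 1.16 to 1.46), G20 called 263 (1.37%, 1.21 to 1.54) and G100 called 179 (1.37%, 1.18 to 1.58). G200 called 177 (1.12%, 0.960 to 1.29), G500 called 122 (1.19%, 0.989 to 1.42), G700 called 100 (1.25%, 1.02 to 1.52) and G1000 called 103 (1.02%, 0.831 to 1.23). The interval of G300 lay above those of G200 and G1000 and overlapped or met those of the other lists. These intervals cover counting error only, and the difference between lists was not tested.

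The high share of G300 was seen mainly in regions that no other list called. Of the 3099 regions called in G300 alone, 107 were isolated (3.45%, 95% exact binomial interval 2.84 to 4.16). FT had 89 of 4333 (2.05%, 1.65 to 2.52), G20 had 69 of 2685 (2.57%, 2.00 to 3.24), G100 had 26 of 1022 (2.54%) and G200 had 56 of 2339 (2.39%, 1.81 to 3.10). The high-salt lists had few such regions, with 14 of 563 in G500 (2.49%), 13 of 343 in G700 (3.79%, 2.03 to 6.39) and 9 of 568 in G1000 (1.58%). Among regions that a second list also called, the G300 share was 1.23% (1.06 to 1.41), close to the 1.27% of G100 (1.08 to 1.49), and the lowest was 0.897% in G200 (0.745 to 1.07). The isolated regions of G300 alone were weak, with a median −log10 q of 2.24 against 2.99 in the other regions of G300 alone. In the high-salt lists the order was the reverse, with 3.16 in isolated and 2.60 in other regions of G500 alone, 3.22 and 2.49 for G700, and 3.07 and 2.68 for G1000, on 9 to 14 isolated regions each. When every list was cut to the length of the shortest, keeping the 8102 peaks best by −log10 q, the order of fractions changed. G700 then had the highest share of isolated regions (7.54%, 6.97 to 8.14), G300 had 6.51% (5.98 to 7.07), and FT and G200 had the lowest at 5.76% (5.26 to 6.30) and 5.71% (5.21 to 6.24). At that length 206 of the 663 regions (31.1%) still met the rule.

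**Figure D2:**
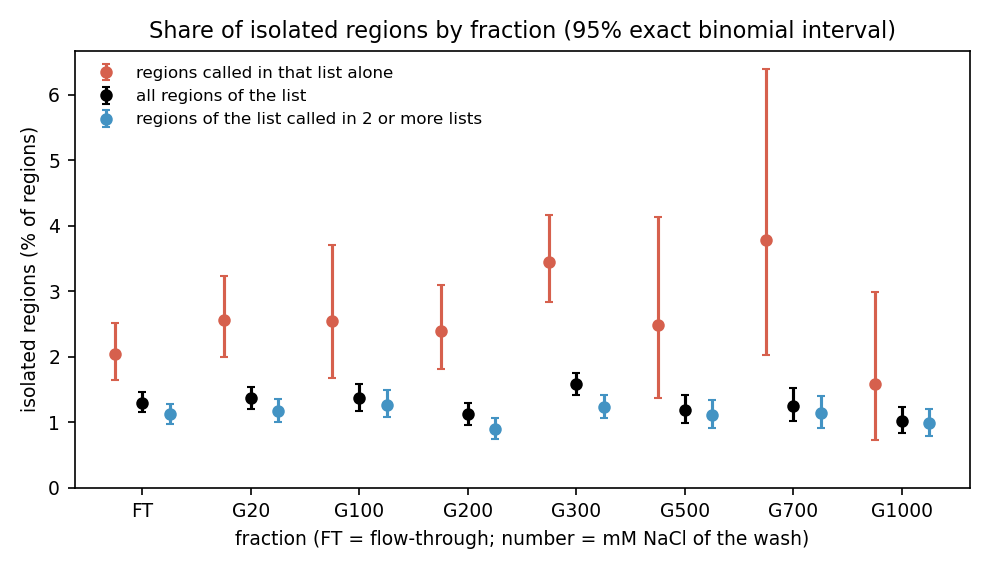
Percent of regions that are isolated in each fraction, with 95% exact binomial intervals (counting error only), for regions called in that list alone (orange), all regions of the list (black) and regions called in 2 or more lists (blue). The black point is highest in G300 (1.58%) and lowest in G1000 (1.02%), and the blue points lie between 0.897% and 1.27%.

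Pairs of fractions were compared next. Of the 97 isolated regions in exactly 2 lists, the pair FT and G20 held 17 (17.5%, against 17.4% of other regions in 2 lists). FT with G300 and G20 with G300 held 11 each, which is 11.3%, against 16.7% and 9.53% of other regions. The pair FT and G200 held 1 (1.03%), against 10.2% of other regions in 2 lists. Of the 31 isolated regions in 7 lists, the missing list was G700 in 9 (29.0%), G1000 in 8, G500 in 6 and G200 in 6. Among other regions in 7 lists G700 was missing in 43.8%, G500 in 19.9%, G1000 in 19.3% and G200 in 8.34%.

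A low-salt pattern, with calls in each of FT, G20 and G100 but no call at 500 mM or above, was met by 17 isolated regions (2.56%), beside 3.12% of all merged regions. The reverse pattern held for 0 isolated regions, beside 0.00546% of all merged regions. With at least 1 list of the low-salt side and none of the high-salt side there were 294 (44.3%, beside 42.1% of all). At least 1 high-salt list and no low-salt list called 50 (7.54%, beside 5.39% of all). The low-salt shares lay near the background of the whole set, and the high-salt one rests on 50 regions. The differences were not tested. The low-side region of best mean rank was chr3:80782798-80783287, where the authors' −log10 q was 4.94 for FT, 10.0 for G20 and 5.47 for G100. It was called in no other list. The next, chr12:124457198-124458114, had 6.58 in FT, 8.78 in G20, 2.74 in G100, and then 2.21 in G200 and 10.3 in G300. On chr13:95620164-95621256 the values were 8.64 in FT, 10.7 in G20, 4.69 in G100 and 1.37 in G300. On chrX:75647905-75648589 they were 4.88, 14.8, 4.72 and 3.37 in the same lists. In each of the last 3 a middle fraction, G200 or G300, called the region too.

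Chromosome X held more isolated regions than any other chromosome. It carried 79 of the 663 (11.9%) and 3.50% of all merged regions, so 6.16% of its regions were isolated (95% exact binomial interval 4.90 to 7.62). Chromosome 21 followed with 16 of 370 (4.32%, 2.49 to 6.93) and chromosome 18 with 24 of 590 (4.07%, 2.62 to 5.99). Chromosome 8 had 39 of 1441 (2.71%, 1.93 to 3.68), and chromosomes 4 and 14 had 2.44% each. The lowest shares were on chromosome 19 with 5 of 1368 (0.365%, 0.119 to 0.851), chromosome 22 with 3 of 626 (0.479%), chromosome 17 with 9 of 1443 (0.624%) and chromosome 1 with 29 of 3898 (0.744%). The interval of chromosome X did not overlap that of 20 of the other 22 chromosomes, and met those of chromosomes 18 and 21.

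**Figure D3:**
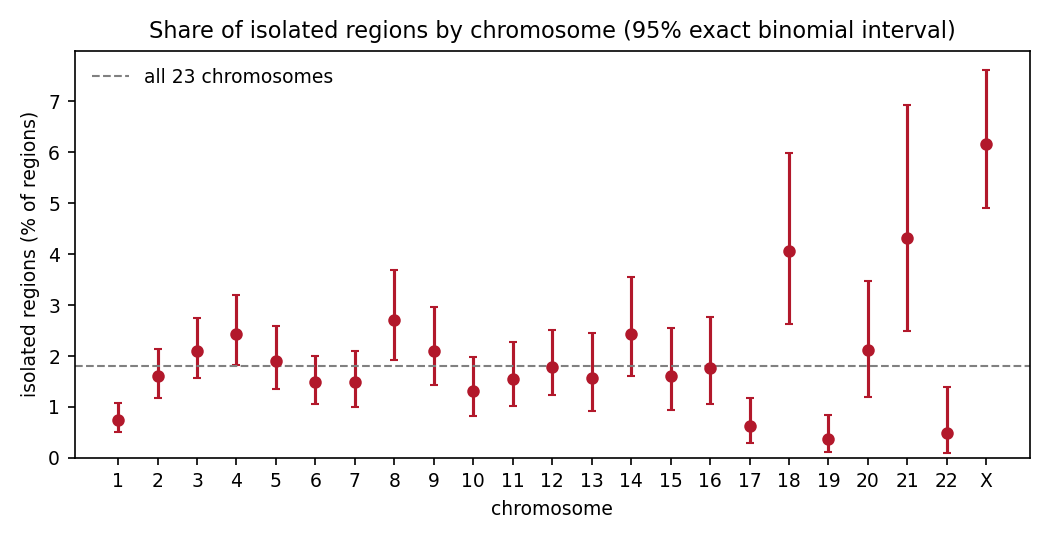
Percent of the merged regions of each chromosome that are isolated, with 95% exact binomial intervals (counting error only), and the value over all 23 chromosomes as a dashed line (1.81%). Chromosome X stands highest at 6.16%, and chromosomes 1, 17, 19 and 22 lie below 1%.

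Part of this order is built into the rule, since a chromosome with fewer regions per Mb leaves larger gaps. Chromosome X had 8.27 regions per Mb of the span covered by peaks, chromosome 18 had 7.56 and chromosome 19 had 23.2. Over the 23 chromosomes the rank correlation between the isolated share and regions per Mb was −0.890. Chromosome 18 had the lowest density of the 3, yet a lower share of isolated regions than X, with overlapping intervals. Protein-coding genes were counted by chromosome in the RefSeq table of assembly GRCh38.p14. Chromosome 19 had 24.6 such genes per Mb, chromosome 17 had 14.4, chromosome X had 5.46 and chromosome 18 had 3.46. Over all 23 chromosomes the rank correlation between the isolated share and these genes per Mb was −0.522. Chromosomes of like gene density differed in their isolated share. Chromosome 13, with 3.54 genes per Mb, had 1.56% isolated, and chromosomes 3 and 9, with 5.47 and 5.51 genes per Mb, had 2.09% and 2.10%. The chromosomes share the 8 libraries and the same rule, so these values are descriptions.

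The place of chromosome X was seen in each fraction. Isolation was set once on all lists merged, and a region called in several lists counts in each, so these shares are not independent. Its share of the isolated regions was 11.3% in FT, 15.6% in G20, 8.38% in G100, and 13.0% in G200, then 12.3% in G300 and 12.3% in G500, and lastly 11.0% in G700 and 12.6% in G1000. Among other regions the share on X was between 3.16% (G200) and 4.03% (G1000). G100 had the lowest and G20 the highest share, from 15 and 41 regions. The X share was 4.93% at equal list length and 6.70% with a distance of 100000 bp, and 13.6% with 500000 bp. The X share of other regions was not computed at these settings, so whether the excess held at equal list length was not tested.

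Isolated regions followed one another in places. The rule favours this, since the gap beside an isolated region also counts for its neighbour, and no expected share was computed. Of the 663, 340 had no isolated region as a direct neighbour. The other 323 (48.7%) did, in 132 runs of 2 to 8. Chromosome X held 18 of these runs with 52 regions, among them the longest runs, each of 8 regions. The first spanned 9.95 Mb, from 85625041 to 95570587, and 5 of its 8 regions were called in 1 list. Its strongest region, chrX:92928230-92929190, was called in each list except G100, with a best −log10 q of 13.3. The other run of 8 spanned 7.38 Mb, from 140271102 to 147649442, and crossed the longest peak-free stretch of the chromosome. Its most shared region, chrX:140499763-140500498, was called in 6 lists with a best −log10 q of 5.34. On chromosome 21 a run of 6 spanned 2.48 Mb, from 24215122 to 26696184, and its region from 24824850 to 24825373 was called in 5 lists with a best −log10 q of 9.88. On chromosome 8 a run of 4 from 136802761 to 139948897 held regions of single lists only.

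The most isolated region lay on chromosome 16, chr16:61952296-61952755, with 3161718 bp to the left and 4351534 bp to the right without another region. It was called in FT with a −log10 q of 3.56 and in G20 with 1.59. The summits of these lists lay 16 bp apart. On chromosome 18 the region chr18:65183312-65184486 had 1609028 bp and 1197411 bp of empty sequence on its sides and was called in every list except G200. Its −log10 q was 10.7 in FT, 14.0 in G20 and 4.02 in G100, then 9.15 in G300, 4.93 in G500, 4.23 in G700 and 8.76 at the highest salt, G1000. The region chr5:3439152-3439621 had 1176156 bp to the nearer neighbour and −log10 q of 1.40 in G200, 5.45 in G300 and 5.64 in G500. The region chr10:84109372-84109809 was called in FT alone, with 4.57. The region chr15:20711479-20711914, second by distance, was the first region of its chromosome, near its longest peak-free stretch, and had 3.97 in G100 and 4.31 in G300. Recurrence over several lists was therefore seen at gaps above 1 Mb as well as at narrower ones. In all 81 regions had at least 500000 bp to the nearer neighbour and 15 had at least 1000000 bp. The median distance to the nearer neighbour was 271746 bp for isolated regions and 16916 bp over all regions. The median distance to the nearest region called in all 8 lists was 804 kb for isolated and 169 kb for other regions.

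At the limit of the rule the regions were of single lists on both sides. Just inside were chr6:51418128-51418641 and its neighbour chr6:51618663-51619003, both of G300 alone with 200021 bp between them and −log10 q of 2.24 and 3.24. The third inside was chr7:13454153-13454642 of FT alone, with 200205 bp and 3.41. Just outside were chr11:80747566-80748001 of G300 alone and chr11:80947991-80948319 of G20 alone, 199989 bp apart, with −log10 q of 6.09 and 2.57. The third outside was chr5:101014217-101014494 of G20 alone, with 199603 bp and 4.02.

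Each list also had isolated regions that no other list called, and the strongest of them were modest. The best of FT was chr3:134749342-134749864, with 13 reads at the summit, a fold enrichment of 7.32 and a −log10 q of 8.60. G20 had chr6:85836595-85837092 with 12 reads and 8.21, G200 had chr5:30099798-30100131 with 10 reads and 7.14, and G300 had chr18:14415513-14415930 with 9 reads and 6.29. The best of G100 was chr4:32367719-32368089 (7 reads, −log10 q 5.17). The best of G500 was chrX:42003166-42003472 (9 reads, 5.34), that of G700 chr6:58519586-58519993 (8 reads, 5.70) and that of G1000 chr5:91494814-91495304 (6 reads, 4.26). At these read numbers the absence of a call in another list is not evidence that the site was closed there, since a list records only peaks past its own threshold.

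The 29 isolated regions called in all 8 lists had lower median −log10 q than other regions of all 8 lists, in every list. They lay on 15 of the 23 chromosomes, 6 on chromosome 4, 5 on chromosome 6 and 3 on X, with none on chromosomes 1, 9, 11, 13, 15, 16, 21 and 22. Their widths ran from 504 to 3120 bp. Their median −log10 q in FT was 13.5, against 15.0 in the 4163 other regions of all 8 lists. It was 12.3 against 15.9 in G20, 8.63 against 10.0 in G100, 8.57 against 11.9 in G200 and 13.5 against 15.5 in G300. For G500 the values were 7.39 against 8.12, for G700 6.33 against 6.95 and for G1000 6.53 against 8.48. The −log10 q of a list depends on its depth, so these values describe each list and do not compare fractions. Over the 8 lists the summits of a region spread over 85 to 2553 bp, and in 2 regions all 8 lay within 100 bp. Among regions of all 8 lists the median spread was 260 bp for isolated and 231 bp for other regions. Pooled over regions of 2 or more lists it was 204 bp for isolated and 209 bp for other regions. The order varied with the number of lists, at 211 and 222 bp with 4 lists and 214 and 259 bp with 5.

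**Figure D4:**
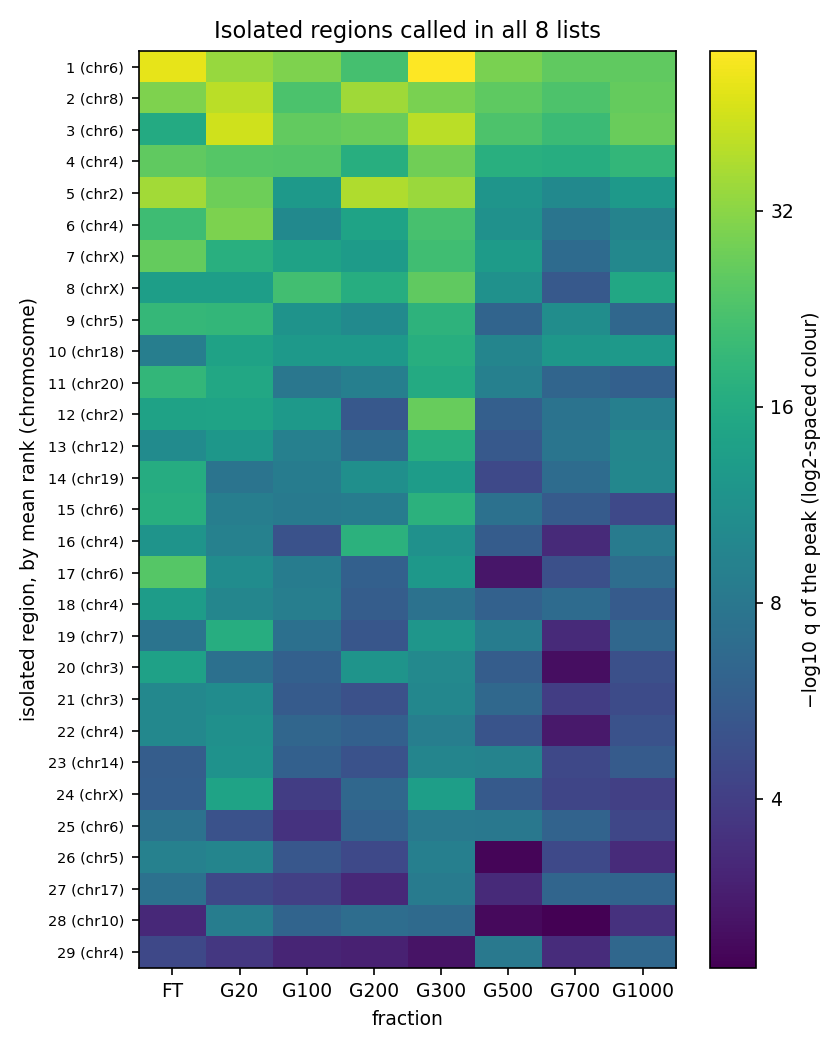
The −log10 q (authors' values, colour on a log2-spaced scale) of the 29 isolated regions called in all 8 lists, 1 row per region ordered by mean rank, 1 column per fraction. Values reach 56.4 in G300 for the first region, and the last 3 regions lie below 9.

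The isolated region of best mean rank was chr6:58776318-58779437, also the widest at 3120 bp. It lay 256324 bp from its left neighbour and 3134677 bp from its right one, beside the longest peak-free stretch of chromosome 6. Recovered reads were 182 in FT, 123 in G20 and 107 in G100 at low salt, 78 in G200 and 181 in G300, and 100 in G500, 89 in G700 and 96 in G1000 at high salt. Its fold enrichment was 4.11 to 4.59, and its local background was 17.7 to 43.2 reads, the highest of the 12 best-ranked regions in every library. The summits of the lists were up to 2553 bp apart within it, so the reads of different libraries were not all counted at the same position. A second region beside such a stretch, chr19:28283826-28285302, had 545092 bp to its nearer neighbour and a summit spread of 992 bp.

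Next in rank was chr8:110345878-110346927, with 204580 bp to the nearer neighbour. It held 47 reads in FT, 53 in G20, 31 in G100, and 44 in G200, then 46 in G300 and 34 in G500, and lastly 30 in G700 and 37 in G1000, at folds of 9.81 to 13.3. The region chr6:167040661-167041587 had 32 reads in FT, 59 in G20, 38 in G100, and 38 in G200, then 56 in G300 and 30 in G500, and lastly 27 in G700 and 35 in G1000, and its 8 summits lay within 99 bp. FT was low there for its depth, with 0.595 times the reads expected from ordinary shared regions (exact binomial test, adjusted p = 0.141). With shares from the genome background instead, the ratio was 0.453 and passed the test (exact binomial test, adjusted p = 8.38e-06). At chr8:110345878-110346927 FT (0.651) and G200 (1.69) then passed too (exact binomial test, adjusted p = 0.0211 and 0.0223). With those shares 27.8% of all tested regions were called. At chr4:18023257-18024350 the reads were 44 in FT, 40 in G20, 37 in G100, and 28 in G200, then 44 in G300 and 28 in G500, and lastly 26 in G700 and 30 in G1000, and each lay within 0.813 to 1.21 times its expectation.

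The region chr2:136288108-136289322 was the isolated region of highest −log10 q in G200 (38.5). It had 55 reads in FT, 46 in G20, 25 in G100, and 52 in G200, then 55 in G300 and 23 in G500, and lastly 20 in G700 and 23 in G1000. The G200 value was 1.40 times its expectation (exact binomial test, adjusted p = 0.676). The other chromosome 2 region, chr2:153573902-153575728, went the opposite way in G200, with 15 reads and 0.580 times the expectation (exact binomial test, adjusted p = 0.776), and had 48 reads in G300. Neither difference passed the test. Scaled to the genome background, G200 at chr2:136288108-136289322 did, with a ratio of 2.15 (exact binomial test, adjusted p = 4.67e-05). That scaling called 27.8% of all tested regions and 17.2% of the isolated ones, so the call is not particular to this region.

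Chromosome X gave 3 isolated regions of all lists. At chrX:110924081-110925242, which had 584293 bp to its nearer neighbour, reads were 38 in FT, 23 in G20 and 20 in G100 at low salt, 18 in G200 and 29 in G300, and 20 in G500, 12 in G700 and 15 in G1000 at high salt. At chrX:14891044-14891958 they were 25 in FT, 21 in G20, 27 in G100, and 24 in G200, then 36 in G300 and 18 in G500, and lastly 11 in G700 and 20 in G1000. The third, chrX:55743728-55744836, had between 8 and 20 reads. No library departed from its expectation at any of the 3 after adjustment.

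The other regions among the 12 of best mean rank were on chromosomes 4, 5, 18 and 20. At chr4:100484538-100485325 reads ran from 14 in G700 to 38 in G20. At chr5:107717243-107718506 they ran from 15 in G500 and G1000 to 34 in FT, and at chr18:26889072-26890089 from 15 in G500 to 23 in G300. At chr20:8581192-8581783, a narrower region of 592 bp, they ran from 9 in G700 and G1000 to 24 in FT. The last-ranked region, chr4:127966181-127966928, was the one with most reads in G500, with 13, against 10 in FT, 9 in G20, 7 in G100, and 6 in G200, then 8 in G300, 7 in G700 and 12 in G1000. That was 1.92 times the expectation in G500 (exact binomial test, adjusted p = 0.804) and 1.74 times in G1000, on few reads. At chr6:147523200-147524766 the highest count was 46 in FT, 1.46 times the expectation, and the lowest was 11 in G500, 0.632 times. At chr4:42658628-42659774 G200 had 24 reads, 1.44 times the expectation, and G100 had 10, 0.674 times. None of these passed the test after adjustment. Scaled to the genome background, G200 at chr4:42658628-42659774 did, with a ratio of 2.21 (exact binomial test, adjusted p = 0.00918). So did FT at chr18:26889072-26890089, with 16 reads and a ratio of 0.503 (exact binomial test, adjusted p = 0.0261). That scaling called 27.8% of all tested regions. The third of the widest isolated regions, chr3:85007749-85009376, spanned 1628 bp, was called in every list except G1000, and its summits lay up to 1284 bp apart.

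The balance of reads between libraries was then tested. Each region's reads in 1 library were compared with those in the other 7 by a two-sided exact binomial test, with Benjamini-Hochberg adjustment over 33200 tests in 4150 regions. What is compared is libraries, not conditions. Only regions called in all 8 lists entered, so a region that fell below the peak threshold of any list could not be tested. Of the 29 isolated regions 1 differed (3.45%), beside 75 of the 4150 (1.81%). It was chr6:58776318-58779437, where G200 had 0.656 times the expected reads (exact binomial test, adjusted p = 0.0127). The local background of G200 there, 17.7 reads, was also the lowest of the 8 libraries. Its fold of 4.23 lay within the 4.11 to 4.59 of all libraries, and the summits were up to 2553 bp apart. The test used reads without the local background. The call was lost with expected shares taken from each library's genome background, where the ratio was 1.01 (exact binomial test, adjusted p = 1.00). That scaling called 5 other isolated regions, with G200 higher in 3 and FT lower in 3, and 27.8% of all tested regions. G200 was lower in 0.867% of all tested regions. An unadjusted exact binomial p under 0.05 was reached in 11 of the 232 tests of isolated regions (4.74%), beside 5.22% of all tests. The ratio to the expectation ran from 0.511 to 1.92 over the isolated regions and libraries, with the lowest at chr4:31997787-31999135, which had 8 reads in G200. Median reads per library were 17.0 in isolated and 19.0 in other tested regions, a depth at which small shifts are not detectable.

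Summed over the 27 isolated regions that lay more than 1 Mb from the longest peak-free stretches and more than 20 kb from the chromosome start or last peak, reads were 701 in FT, 0.980 times the expectation from the other regions of all 8 lists placed likewise (95% Poisson interval 0.908 to 1.05). They were 647 in G20 (0.964, 0.891 to 1.04), 473 in G100 (1.02, 0.929 to 1.11), 723 in G300 (1.05, 0.975 to 1.13) and 408 in G500 (1.03, 0.937 to 1.14). G700 had 349 (1.04, 0.935 to 1.16) and G1000 had 424 (1.05, 0.957 to 1.16). G200 had 468, or 0.897 times (0.818 to 0.983), and it was above its expectation in 6 of the 27 regions. The intervals of the other 7 libraries include 1. Scaled to each library's genome background instead, the G200 ratio was 1.38 and the FT ratio 0.746. That scaling sets reads against the background and not against other regions of all 8 lists. Its ratios therefore do not compare isolated with other regions.

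**Figure D5:**
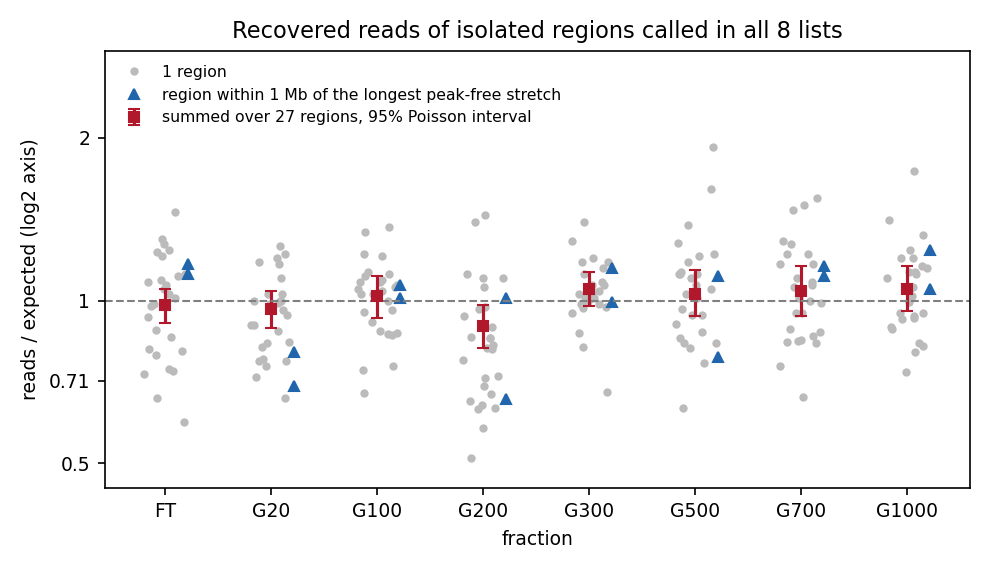
Recovered reads over expected reads (log2 axis) of the 29 isolated regions called in all 8 lists, by fraction: grey points are single regions, blue triangles the 2 regions near a longest peak-free stretch (1 Mb or less), and red squares the sum over 27 regions with 95% Poisson intervals. The sums lie between 0.897 (G200) and 1.05, and single regions between 0.511 and 1.92. The intervals cover counting error only.

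Some isolated regions lay at the edge of the longest stretch without peaks on their chromosome, called the longest peak-free stretch here. Within 1 Mb of such a stretch lay 29 isolated regions (4.37%), against 386 other regions (1.07%). A region directly beside the stretch meets the distance rule on that side, so part of this contrast is built into the rule. Of these, 8 were on chromosome X, where the stretch lay between 141237972 and 146993070. Another 3 were on chromosome 6, 3 on chromosome 9 and 3 on chromosome 16. On chromosome 6 the far side of the stretch was bounded by chr6:61914115-61914427, a region of 313 bp called in 3 lists with a −log10 q of 10.4 in G20, 16.5 in G300 and 7.44 in G500. Single lists called 16 of the 29. Leaving all 29 out, a step added once the data had been seen, gave 634 isolated regions, 57.9% of them in a single list.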

How the data were processed

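ATAC-seq was measured in 8 fractions of 293T cells, 1 library each. Per the submitters' processing notes, Bowtie2 2.2.6, MACS2 2.2.1 and HOMER were used, with hg19 and mm10 listed. Settings of the peak caller: not given in the sources used here. Coordinates are those of the files, counted from 1, and taken as hg19, the human build of the pair. The authors called peaks per library. Each deposited list holds an integer score (not used), a fold enrichment, the −log10 p and −log10 q values, interval and summit.

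Reads at a summit were recovered from the deposited fold and −log10 p: the fold is pileup plus 1 over background plus 1 and p is Poisson. The pileup was solved to a match within 0.001, and a single pileup was found for 98.9% to 99.8% of the peaks of a list. MACS2 pileups may count fragments. For regions called in all 8 lists the highest pileup per library was tested (exact binomial, two-sided, Benjamini-Hochberg adjusted), with expected shares from 4074 ordinary regions, those more than 1 Mb from the longest peak-free stretch and 20 kb from chromosome start or last peak. The scripts were tested on simulated data. Intervals cover counting error only. Python 3.11.15, scipy 1.17.1 and pandas 2.3.3 were used.

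Named regions are the 12 of best mean rank among isolated regions of all lists, the best of each list, of each list alone, the 5 most isolated, the 3 widest, the 3 on each side of the limit, 4 low-side regions, and those passing the read test. The members of runs, the other regions of all lists and the chromosome 6 region beyond the stretch were picked with their values in view. The regions and rules were chosen with earlier results of these data known. No hg19 genome or annotation was used, so genes, sequences and motifs are not analysed here.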

Additional observations from a re-analysis of the deposited data

How the results depend on the processing

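No paired analysis was possible because each fraction has a single library. The number isolated was 2434 at 100000 bp, 81 at 500000 bp and 1297 at equal list length (663 in the report). Their share of all regions was 6.64%, 0.221% and 7.78% under these settings, 2.09% with a −log10 q of at least 2 and 2.71% without FT and G200. Those called in all lists numbered 161 (6.61%), 2 (2.47%) and 155 (12%), and 53 (6.58%) without FT and G200. Those of a single list numbered 1226 (50.4%) at 100000 bp and 47 at 500000 bp, and their share was 38.9% at equal list length. The median width was 457 bp at 100000 bp, 446 bp with a −log10 q of at least 2 and 576 bp at equal list length. With regions of a single list left out first, which was added once the data had been seen, there were 1023 isolated regions (4.72%), 125 in all lists (12.2%), 0 in a single list (0%), and a median width of 684 bp. Leaving out 1 list at a time gave 663 to 731 isolated regions, 1.83% to 2.25% of all, 32 to 41 in all remaining lists (4.67% to 5.86%), 385 to 434 in a single list (54.8% to 59.4%) and a median width of 419 to 442 bp. Between 555 (without G300) and 654 (without G1000) of the 663 then still met the rule. G300 had the highest isolated share in each setting except equal list length (G700) and without G300 (G20). The read test called 5 isolated regions when scaled to the background (chr2:136288108-136289322, chr4:42658628-42659774, chr6:167040661-167041587, chr8:110345878-110346927 and chr18:26889072-26890089), where 27.8% of all tested regions were called and chr6:58776318-58779437 was not (ratio 1.01), and 0 without FT and G200 (exact binomial test). Without each library in turn it called 0 to 1, with 0 without G200, the library that gave the call. Without each of the other 7 libraries, on the scaling of the report, chr6:58776318-58779437 kept its call, at an adjusted p of 0.00205 to 0.0350 (exact binomial test). The cause of these shifts was not tested.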
